A study of Mus musculus with 4 samples.

Results

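The immunoglobulin-family adhesion molecules described here are 10 genes, Ncam1, Ncam2, Dscam, Dscaml1, Kirrel3, Icam5, Negr1, Lsamp, Ntm and Opcml, chosen by name from among the 45706 features counted. The choice was made with earlier results of these data known, so the comparisons of the members with all genes below are a description. All 10 were found in the counts and all 10 passed the filter on low counts. These proteins sit in the cell membrane and carry immunoglobulin domains on their outer side, through which they bind copies of themselves or one another on a neighbouring cell. They are known for growth of axons, for the spacing and matching of neurites and for the building of synapses, all of which a new granule cell of the dentate gyrus goes through as it joins the hippocampal circuit. Ncam1 and Ncam2 are neural cell adhesion molecules, Dscam and Dscaml1 are known for self-avoidance of neurites, Kirrel3 is a synaptic recognition molecule of the hippocampus, Icam5 (telencephalin) is a dendritic protein of forebrain neurons, and Lsamp, Negr1, Ntm and Opcml are the IgLON proteins, held in the membrane by a lipid anchor.

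The study followed adult-born granule cells by single-nucleus RNA sequencing. Mice with a tamoxifen-inducible Cre and the CAG floxStop-Sun1/sfGFP reporter on a C57BL/6J background, male and female and 6 to 8 weeks of age, received tamoxifen, so that Cre switched on a green nuclear envelope protein in the recombined cells and all their progeny, glia included. Labelled nuclei were sorted from the left dentate gyri of 4 mice pooled at each of 4 times, w1, w2, w4 and w8, named by the weeks since induction, and every pool was 1 library, with no control without the alleles. The authors ordered their clusters from radial glia-like stem cells (RGL) through neural progenitor cells (NPC), neuroblasts (NB1 and NB2), immature granule cells (GCimm1 and GCimm2) and young granule cells (GCyoung) to mature granule cells (GCmat1), with a second mature cluster (GCmat2), astrocytes, oligodendrocyte precursor cells (OPC), oligodendrocytes and a small group labelled as pericytes (Cluster 11) beside them.

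The count files held 17046 barcodes, of which the 14367 nuclei with a deposited cluster were used, and 22 barcodes occurred in more than 1 library. The libraries held between 2867 and 4243 nuclei and between 13227971 and 28595331 unique molecular identifiers (UMIs), with medians between 4369 UMIs a nucleus in w1 and 7703.5 in w8. Nuclei assigned as male and as female numbered 1628 and 788 in w1 and 1278 and 2729 in w2. They numbered 659 and 2995 in w4 and 2650 and 419 in w8, so the weeks also differed in their balance of the sexes. The cluster names were checked against marker lists: the summed level of 6 oligodendrocyte markers was 15118 counts per 1e6 UMIs (CPM) in the oligodendrocytes, that of 6 precursor markers 7771 CPM in OPC and that of 8 astrocyte markers 12802 CPM in the astrocytes and 8637 CPM in RGL. Cluster 11 held 5 of its 6 markers at their highest level, and Rgs5, a defining pericyte marker, had 0 UMIs there. Levels below are UMIs of a gene over all UMIs of the same nuclei, in CPM. Because a week was 1 pool, weeks were not tested, and the tests compare clusters over sums of UMIs per library and cluster with at least 10 nuclei. Changes were called by edgeR's quasi-likelihood test, with a limit of 1.5-fold and of 0.05 for the p-value after Benjamini-Hochberg adjustment over all genes tested. The authors' expression table, from which the clusters were formed, holds 5 of the members, namely Ncam2, Dscam, Kirrel3, Icam5 and Ntm, and whether these were among the variable genes used is not known here.

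Between NB1 neuroblasts and GCmat1 mature granule cells, 7 of the 10 members rose and 1 fell. The rise was largest for Kirrel3 and was also seen for Ncam2, Icam5, Dscam, Opcml, Negr1 and Lsamp, while Ntm fell and Ncam1 and Dscaml1 did not pass the test. Both clusters had a sum only in w1, with 17 GCmat1 nuclei, and in w4, with 130 NB1 nuclei. Of all genes tested, 20.2% rose and 19.9% fell in this comparison, and the median log2 fold change was 2.05 over the members and -0.04 over all genes. The fitted fold changes use TMM scaling and also draw on libraries with only 1 of the clusters, and these effects were not separated. For this pair the members' fitted values lay above the mean CPM ratios of the libraries by a median of 0.44 on the log2 scale. The corresponding medians were 0.28 from GCimm2 to GCyoung, 0.26 from NPC to NB1, 0.25 from GCimm1 to GCimm2, 0.16 from NB1 to GCimm1 and -0.35 from RGL to NPC, and in the glial comparisons 0.13 from RGL to OPC, -0.26 from GCmat1 to OPC, -0.27 from OPC to oligodendrocytes and -0.30 from GCmat1 to astrocytes.

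The changes fell at separate steps of the trajectory. From RGL to NPC, Dscam and Dscaml1 rose and Ncam2, Kirrel3, Lsamp and Ntm fell (2 higher and 4 lower, against 13.7% higher and 15.9% lower over all genes). From NPC to NB1, Ncam1 and Lsamp rose and Ntm fell again (2 higher and 1 lower, against 14.7% and 14.6%). Between the neuroblast clusters NB1 and NB2, Negr1 alone changed, downward (0 higher and 1 lower, against 1.81% and 1.13%). By edgeR over all libraries, the step from NB1 to GCimm1 held more calls than any other single step between neighbouring clusters, 8, with Ncam2, Dscam, Kirrel3, Icam5, Negr1, Lsamp and Opcml higher and Ntm lower (7 higher and 1 lower, against 7.76% and 4.75%). DESeq2 called 7 members at this step and 7 from RGL to NPC, so this rank depends on the method. The steps also differed in the power to call a change. In simulated data, 66 of 104 changes of 2-fold were recovered from NB1 to GCimm1, 42 of 99 from RGL to NPC and 18 of 88 from NPC to NB1. Without w2 the calls of Icam5, Negr1 and Lsamp into GCimm1 were lost. From GCimm1 to GCimm2, 6 members rose and 0 fell, against 6.52% and 2.91% of all genes, and these were the 7 that rose into GCimm1, without Opcml. Here too the calls of Icam5, Negr1 and Lsamp were lost without w2. From GCimm2 to GCyoung, Kirrel3, Icam5 and Negr1 passed the test (3 higher and 0 lower, against 9.27% and 9.62%), but the call of Negr1 was lost with RLE in place of TMM factors, with DESeq2 and in 8 other alternatives, and DESeq2 called only Kirrel3. From GCyoung to GCmat1, 0 members passed the test by edgeR or by DESeq2 and 0 had an unadjusted p below 0.05, against 1.6% of all genes higher and 2.25% lower.

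**Figure D1:**
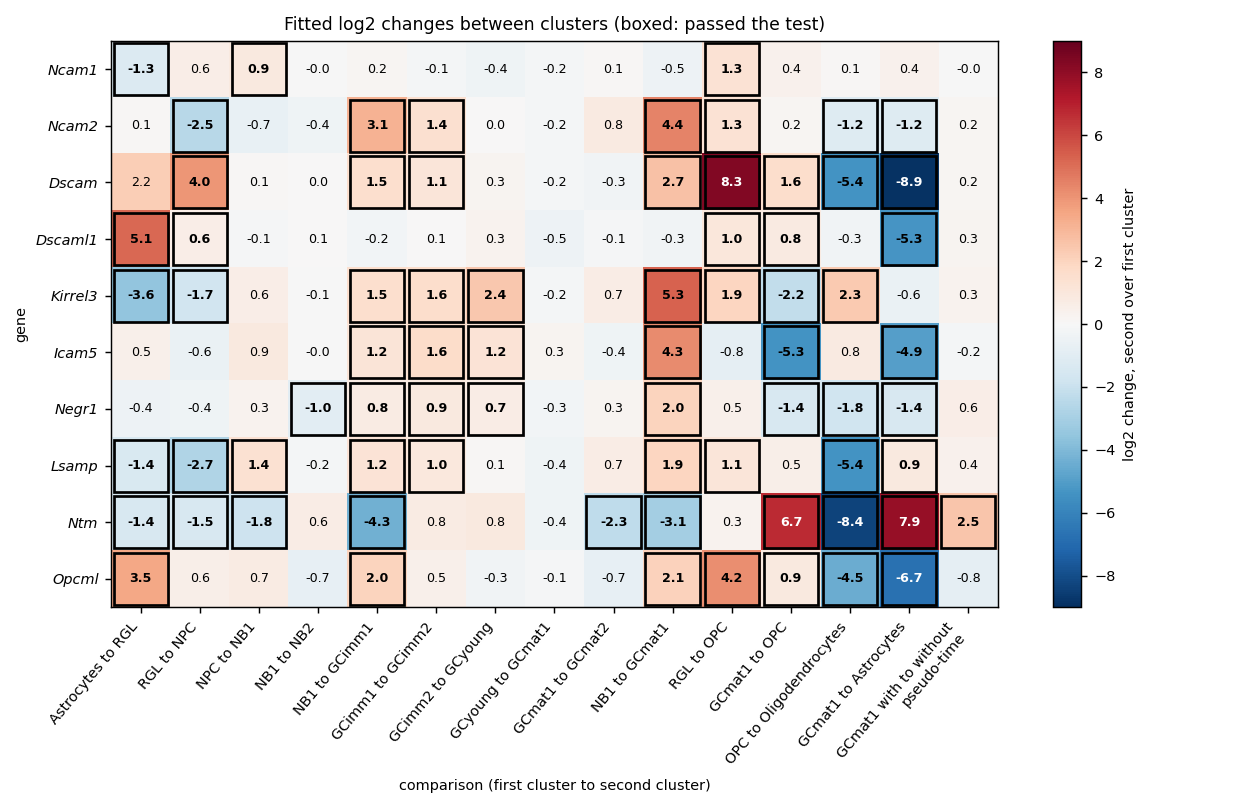
Heat map of the fitted log2 fold changes (edgeR, second cluster over first) of the 10 members (rows) in the 15 comparisons of clusters (columns), in red for higher and blue for lower, with boxes around those past both thresholds. The 7 boxed rises from NB1 to GCmat1 lie between 1.93 and 5.32 and the fall of Ntm at -3.08, while the column from GCyoung to GCmat1 has no box.

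Ncam1 and Ncam2 had different courses, with Ncam1 higher and Ncam2 lower in neuroblasts than in RGL. Ncam1 stood at 501, 400, 379 and 571 CPM in the RGL of w1, w2, w4 and w8, at 902, 875 and 721 CPM in the NPC of w1, w2 and w4, and at 1298, 1329 and 1230 CPM in the NB1 of the same weeks. The 3 sets did not overlap, and NB1 was the highest of them in each library that held all 3. Ncam1 kept to between 1072 and 1392 CPM in every library of NB2, GCimm1 and GCimm2, and lay at 728 and 707 CPM in GCyoung (w4 and w8) and 615, 720 and 644 CPM in GCmat1 (w1, w4 and w8). The w1 sum of GCmat1 held 17 nuclei. The rise from NPC to NB1 passed the test (log2 fold change 0.87 ± 0.20 (SE), adjusted p = 0.000539), and the difference from RGL to NPC had an adjusted p of 0.0184 with a log2 value of 0.58 ± 0.20, just short of the 1.5-fold limit. Between NB1 and GCmat1 the pooled CPM ratio of Ncam1 was 0.50, and the fitted log2 fold change of -0.48 ± 0.21 did not pass (adjusted p = 0.0531), although it did without the w4 library, at -0.82.

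Ncam2 was high at both ends and low between. Its level was 1068, 737, 847 and 877 CPM in RGL, 148, 173 and 328 CPM in NPC, and 82.5, 89.8 and 134 CPM in NB1. It then rose to 484, 867 and 1015 CPM in GCimm1 (w1, w2 and w4), and to 2010, 2099 and 2092 CPM in GCimm2 (w2, w4 and w8). All RGL libraries lay above all NPC and NB1 libraries, and all GCimm2 libraries above all of GCimm1. The fall from RGL to NPC (log2 fold change -2.52 ± 0.28, adjusted p = 1.55e-10), the rise from NB1 to GCimm1 (3.14 ± 0.26, adjusted p = 5.83e-14) and the further rise to GCimm2 (1.44 ± 0.24, adjusted p = 1.1e-05) all passed. GCyoung at 1734 and 1895 CPM and GCmat1 at 1735, 1496 and 1608 CPM stayed near the GCimm2 level, and no later step of the main path passed. In the GCimm1 cluster Ncam2 was lowest in w1 and highest in w4, and among nuclei of the same stretch of pseudo-time (16 to 18 units of the authors' trajectory coordinate) it was again 571, 851 and 996 CPM in w1, w2 and w4, an order of weeks that was not tested.

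The share of Ncam1 among the UMIs of Ncam1 and Ncam2 together put the exchange in 1 measure, which compares clusters and not the genes, since their lengths differ. It was 33.1% in RGL, 83.5% in NPC, 93.7% in NB1 and 94.9% in NB2, and then 60.2% in GCimm1, 34.7% in GCimm2, 29.4% in GCyoung and 29.1% in GCmat1. In GCimm1, where the share was crossing over, it was 74.2% in w1, 60.1% in w2 and 56.4% in w4. NCAM of immature neurons is known to carry polysialic acid, a sugar chain that weakens adhesion and is built by the enzymes St8sia2 and St8sia4. St8sia2 was at 147 CPM in NB1, 104 CPM in GCimm1, 50.8 CPM in GCimm2 and 2.89 CPM in GCyoung. In GCmat1 it had 3 UMIs in all, a level 1430-fold lower than in NB1 (95% counting interval 488 to 6942-fold), and the fitted change passed (adjusted p = 5.85e-23). St8sia4 was at 86.1 CPM in NB1 and 57.9 CPM in GCmat1, a difference that did not pass (log2 -0.45, adjusted p = 0.111). Over NB1, GCimm1, GCimm2 and GCyoung, in that order, the pooled level of St8sia2 and the share of Ncam1 were both lower at each step. Of these steps, the first did not pass edgeR's test for St8sia2 (log2 -0.25, adjusted p = 0.343). From RGL to NPC the share of Ncam1 went from 33.1% to 83.5%, while St8sia2 did not pass (0.13, adjusted p = 0.760). A link between St8sia2 and this share was not tested.

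**Figure D2:**
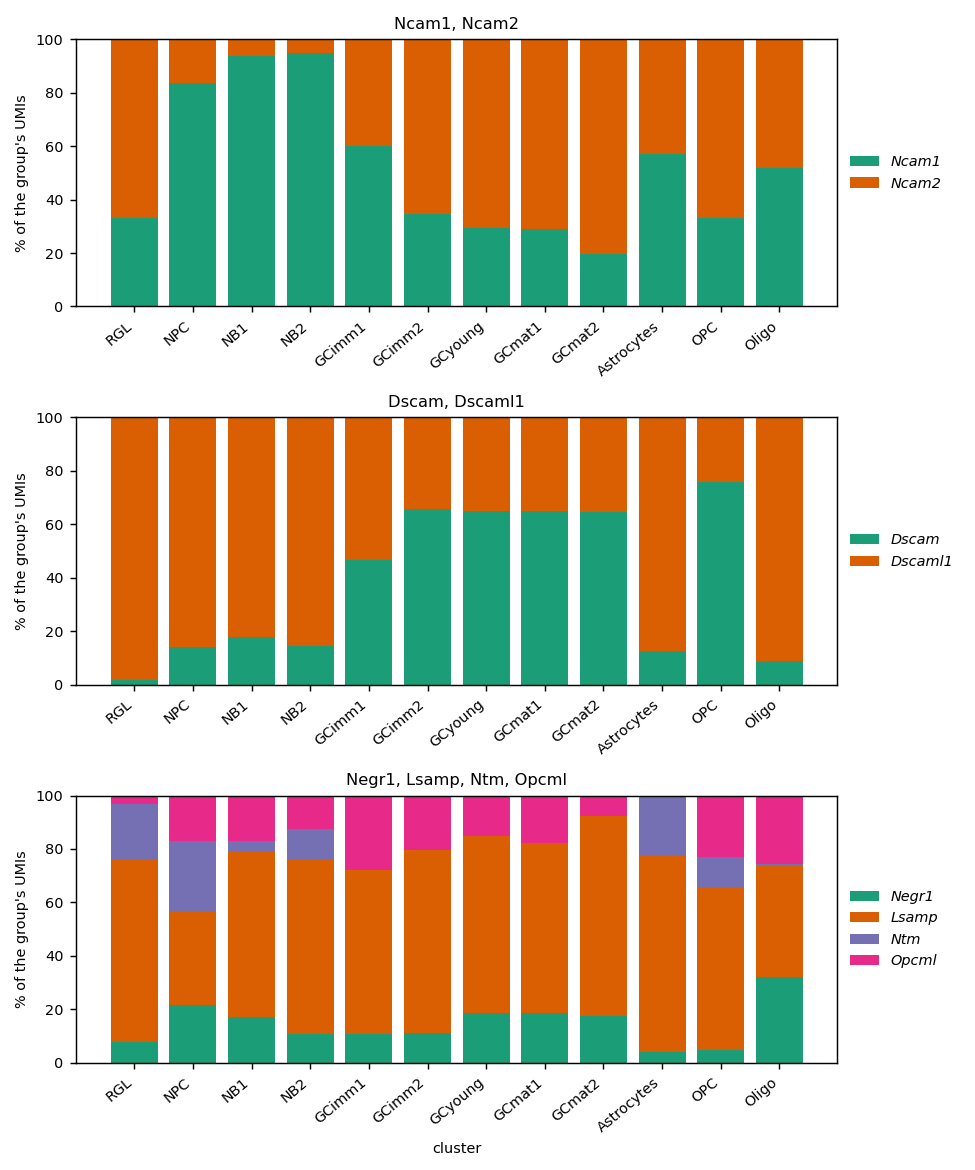
Stacked bars of the share of UMIs, in percent, that each gene holds within the NCAM pair, the DSCAM pair and the 4 IgLON genes, over the pooled nuclei of 12 clusters (Cluster 11 is not drawn). The share of Ncam1 peaks at 94.9% in NB2 and is 29.1% in GCmat1, and the share of Dscam goes from 1.80% in RGL to 64.8% in GCmat1.

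The DSCAM pair also changed its balance. Dscam, which keeps sister neurites from sticking together, was close to absent in RGL, at 10.003, 13.2, 25.0 and 6.37 CPM. It was at 261, 228 and 354 CPM in NPC and 220, 267 and 260 CPM in NB1, above every RGL library. GCimm1 (495, 686 and 791 CPM) and GCimm2 (1353, 1382 and 1552 CPM) followed without overlap. Dscam rose from RGL to NPC (log2 fold change 3.97 ± 0.26, adjusted p = 7.54e-18), from NB1 to GCimm1 (1.48 ± 0.20, adjusted p = 3.71e-08) and from GCimm1 to GCimm2 (1.09 ± 0.20, adjusted p = 4.49e-05). It stayed at 1453 and 1446 CPM in GCyoung and was at 986, 1406 and 1185 CPM in GCmat1.

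Dscaml1, its close relative, was instead highest in progenitors. Its level was 1049, 607, 597 and 714 CPM in RGL, 1886, 1183 and 1114 CPM in NPC and 1185, 967 and 1087 CPM in NB1. The w1 library was the highest in each of these clusters, and every NPC library lay above every RGL library. The rise from RGL to NPC (log2 fold change 0.62 ± 0.20, adjusted p = 0.0146) did not pass without w1 (0.55), without w2 (0.61) or without w8 (0.54), nor without the library term, and was lost in 9 alternatives in all. Dscaml1 was at 538, 661 and 659 CPM in GCmat1, and from NB1 to GCmat1 its log2 value of -0.30 ± 0.22 did not pass (adjusted p = 0.279). Dscam made up 1.80% of the UMIs of the pair in RGL, 17.9% in NB1, 46.5% in GCimm1 and 64.8% in GCmat1.

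Kirrel3 and Icam5 were low up to GCimm1 and stood well above those levels from GCyoung onward. Kirrel3 was at 126, 116, 106 and 268 CPM in RGL, 44.1, 61.6 and 26.2 CPM in NPC and 76.5, 51.1 and 47.1 CPM in NB1. It was at 151, 119 and 212 CPM in GCimm1, 394, 482 and 553 CPM in GCimm2, and 2253 and 2388 CPM in GCyoung. From NB1 to GCyoung the libraries of each of these stages lay wholly above those of the stage before. Kirrel3 fell from RGL to NPC (log2 fold change -1.70 ± 0.34, adjusted p = 6.67e-05), and then rose in 3 successive steps, by 1.48 ± 0.25 into GCimm1 (adjusted p = 7.93e-06), 1.60 ± 0.24 into GCimm2 (adjusted p = 1.17e-06) and 2.39 ± 0.26 into GCyoung (adjusted p = 1.3e-10). In the w4 and w8 libraries taken singly the last step was between 4.32-fold and 4.67-fold on the CPM scale. In pseudo-time Kirrel3 was at 580 CPM between 20 and 22 units and at 2427 CPM between 24 and 26 units. It was also at 331 CPM between 6 and 8 units (442 CPM in w1 and 242 CPM in w2), against 126 CPM between 0 and 2. The bin of 6 to 8 units held nuclei of other clusters beside NPC. GCmat1 was at 2107, 2019 and 2214 CPM, a step that did not pass the test, and GCmat2 at 3444 and 3515 CPM, above every library of GCyoung and GCmat1. The pooled ratio of GCmat1 over NB1 was 33.3.

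Icam5 was low in every cluster before the immature neurons. It was between 3.48 and 20.6 CPM in the RGL libraries, at 6.29, 9.30 and 24.6 CPM in NB1, 9.16, 18.9 and 38.8 CPM in GCimm1, and 69.6, 66.9 and 46.6 CPM in GCimm2. The w4 library was the highest of RGL, NPC (39.3 CPM), NB1 and GCimm1. GCyoung stood at 170 and 123 CPM and GCmat1 at 179, 174 and 145 CPM, clear of all earlier libraries. The steps into GCimm1 (log2 fold change 1.16 ± 0.30, adjusted p = 0.00367), GCimm2 (1.62 ± 0.23, adjusted p = 3.62e-07) and GCyoung (1.22 ± 0.24, adjusted p = 8.19e-05) passed. NB1 and GCimm1 overlapped, and the first pair of these calls was lost without w2 (1.05 and 1.01), and DESeq2 called none of the 3 steps. Icam5 had a UMI in 69.1% of GCmat1 nuclei (median 8138 UMIs a nucleus) and in 2.29% of OPC (median 4750). After thinning to 2000 UMIs a nucleus these shares were 25.1% and 1.53%. Astrocytes, OPC, oligodendrocytes and Cluster 11 held between 4.44 and 9.10 CPM, the same low range as RGL, NPC and NB1, so no Icam5 above that shared level was detectable in them at this depth.

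**Figure D3:**
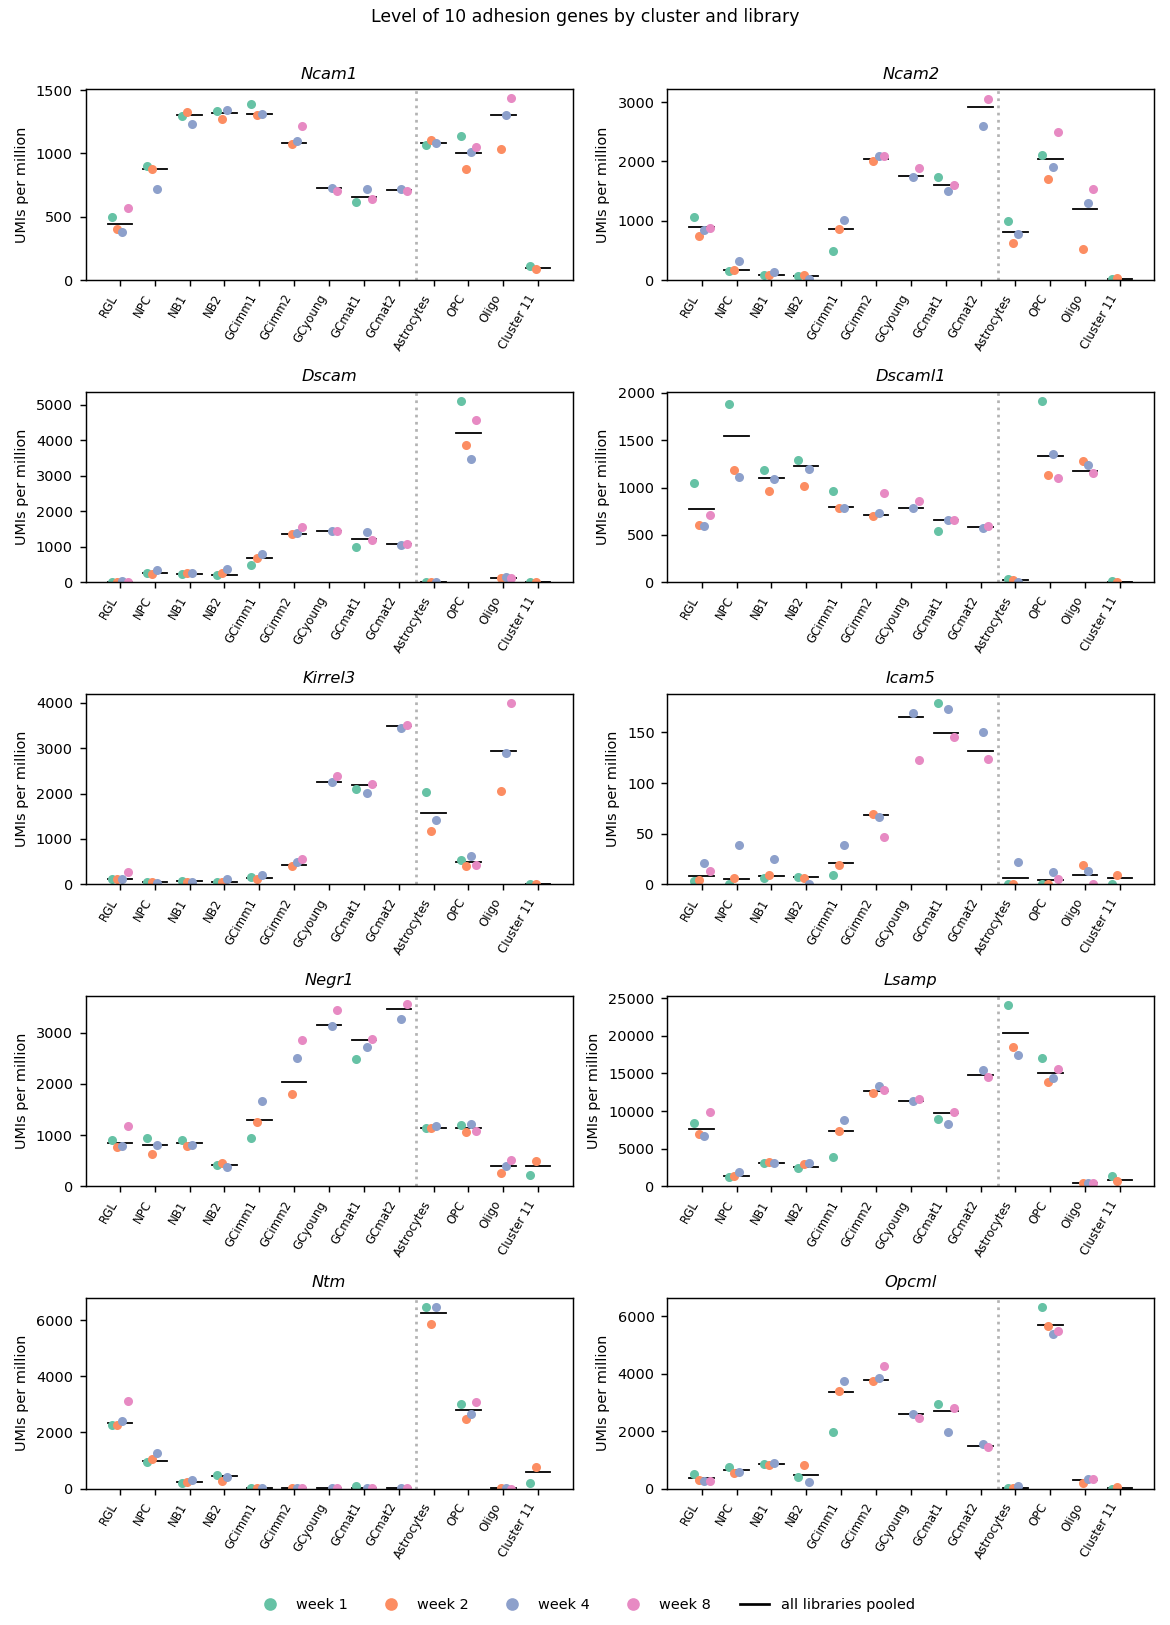
Level of each member in CPM (linear axes that start at 0 and differ between panels) in every cluster, with 1 point per library of at least 10 nuclei, coloured by week, and a line at the level of the pooled nuclei. Kirrel3 climbs from 65.8 CPM in NB1 to 2188 CPM in GCmat1, Ntm drops from 2348 CPM in RGL to 10.7 CPM in GCimm1, and the libraries of 1 cluster can lie far apart, as for Lsamp in GCimm1, at 3969 to 8826 CPM.

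The IgLON genes differed in course, and from NB1 to GCmat1 Ntm fell while Lsamp, Negr1 and Opcml rose. Lsamp was at 8451, 6974, 6680 and 9862 CPM in RGL, at 1273, 1349 and 1900 CPM in NPC and at 3066, 3183 and 3061 CPM in NB1. GCimm1 (3969, 7354 and 8826 CPM) and GCimm2 (12401, 13355 and 12817 CPM) were higher again, with no overlap among NPC, NB1, GCimm1 and GCimm2. The fall from RGL to NPC (log2 fold change -2.73 ± 0.29, adjusted p = 2.37e-11), the rise to NB1 (1.35 ± 0.28, adjusted p = 0.000105) and the steps into GCimm1 (1.23 ± 0.27, adjusted p = 0.000612) and GCimm2 (0.97 ± 0.27, adjusted p = 0.0117) passed. The call into GCimm1 was lost without w2 (1.15) and without w4 (0.95), and that into GCimm2 likewise (1.01 and 1.10). The w1 library was the lowest of GCimm1, and in pseudo-time 16 to 18 Lsamp was at 4385, 7067 and 8424 CPM in w1, w2 and w4. GCmat1 held 8959, 8227 and 9918 CPM.

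Negr1, a growth-promoting IgLON known from studies of body weight, was near the same level in RGL (914, 770, 782 and 1170 CPM) and NB1 (897, 784 and 800 CPM). It was lower in NB2 (408, 457 and 384 CPM), and that fall passed (log2 fold change -0.96 ± 0.23, adjusted p = 0.00748) but was lost without w1 (-0.87), without w2 (-1.11) or without w4 (-0.92). It then stood at 953, 1266 and 1669 CPM in GCimm1, 1804, 2498 and 2865 CPM in GCimm2 and 3123 and 3441 CPM in GCyoung, each stage above the one before. The steps into GCimm1 (0.77 ± 0.22, adjusted p = 0.0105), GCimm2 (0.85 ± 0.22, adjusted p = 0.00611) and GCyoung (0.68 ± 0.24, adjusted p = 0.0415) were small, and none of them was kept at a fold change of 2. The last was lost in 10 alternatives, among them RLE factors (0.53), DESeq2 (0.54), thinning to 2000 UMIs a nucleus (0.59) and a minimum of 5 nuclei (0.49). In the libraries that held both clusters, the CPM ratio of GCyoung over GCimm2 was 1.25 in w4 and 1.20 in w8, below the 1.5-fold limit, so that this call depends on the scaling. Without w2 or w4 the steps into GCimm1 (0.73 and 0.52), GCimm2 (0.97 and 0.87) and GCyoung (0.61 and 0.60) did not pass, nor did the last without w8 (0.73). The whole rise from NB1 to GCmat1 (2491, 2713 and 2878 CPM) was 2.02 ± 0.24 on the log2 scale (adjusted p = 2.56e-10).

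Ntm (neurotrimin) and Opcml lie close together on chromosome 9 on opposite strands, and from NB1 to GCimm1 they changed in opposite directions. Ntm was at 2272, 2270, 2418 and 3124 CPM in RGL, 944, 1041 and 1271 CPM in NPC, 211, 233 and 309 CPM in NB1 and 18.3, 10.8 and 6.77 CPM in GCimm1. No library of 1 of these stages overlapped with the next. NB2, which is not in this series, held Ntm at 498, 267 and 423 CPM in w1, w2 and w4, above NB1 in each week. Ntm fell from RGL to NPC by 1.46 ± 0.23 on the log2 scale (adjusted p = 8.17e-07), to NB1 by 1.84 ± 0.24 (adjusted p = 1.35e-08) and to GCimm1 by 4.33 ± 0.30 (adjusted p = 2.31e-16). A UMI of Ntm was found in 98.2% of RGL nuclei, 27.3% of NB1 nuclei and 4.38% of GCimm1 nuclei, and the share in oligodendrocytes was 4.44%. Opcml was at 490, 303, 274 and 268 CPM in RGL, 866, 814 and 878 CPM in NB1, 1972, 3394 and 3756 CPM in GCimm1 and 3732, 3845 and 4284 CPM in GCimm2. In w1, w2 and w4 it was at 737, 542 and 564 CPM in NPC and at 403, 805 and 231 CPM in NB2. The rise from NB1 to GCimm1 passed (1.98 ± 0.28, adjusted p = 2.52e-07), with all libraries of GCimm1 above all of NB1. Opcml was at 2597 and 2473 CPM in GCyoung and at 2939, 1963 and 2815 CPM in GCmat1, below its GCimm2 levels, though no later step passed.

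The promoter sequences of this pair are shown because these neighbours changed in opposite directions at that step, and they come from RefSeq on GRCm38.p6. RefSeq entries were found for 7 of the 10 members, and the 250 bases before the transcript start were searched on both strands for TGGGAA (the RBPJ motif of Notch signalling), ACAAAG (a Sox motif) and the E-boxes CAGATG and CAGCTG. Capitals mark the letters found, which read in reverse complement as TTCCCA and CTTTGT. The Opcml entry is at chr9:27791049-27791298 on the plus strand, and the Ntm entries are at chr9:29413453-29413702 and chr9:29412686-29412935 on the minus strand. All 3 lie inside the annotated span of their gene, so they belong to starts other than its outermost one.
Opcml: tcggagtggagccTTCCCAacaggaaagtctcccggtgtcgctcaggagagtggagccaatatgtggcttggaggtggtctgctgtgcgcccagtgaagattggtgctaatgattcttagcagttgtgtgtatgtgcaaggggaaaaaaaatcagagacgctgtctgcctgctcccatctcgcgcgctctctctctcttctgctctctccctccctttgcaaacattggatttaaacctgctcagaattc
Ntm, first entry: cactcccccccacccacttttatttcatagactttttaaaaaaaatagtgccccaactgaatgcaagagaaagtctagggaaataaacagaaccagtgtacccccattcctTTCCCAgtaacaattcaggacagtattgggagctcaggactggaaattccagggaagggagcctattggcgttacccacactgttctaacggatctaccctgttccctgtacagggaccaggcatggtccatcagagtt
Ntm, second entry: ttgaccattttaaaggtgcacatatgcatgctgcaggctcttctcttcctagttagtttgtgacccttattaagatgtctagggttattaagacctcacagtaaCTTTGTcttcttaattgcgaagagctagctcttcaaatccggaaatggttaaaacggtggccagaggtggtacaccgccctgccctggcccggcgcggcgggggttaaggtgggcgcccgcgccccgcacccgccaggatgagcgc
The RBPJ letters occurred once in the Opcml promoter and once in the first Ntm entry, and in 21.6% of 32851 promoters of the same length. The Sox letters occurred in the second Ntm entry and in 16.5% of all promoters. The Opcml entry and the first Ntm entry thus shared 1 of the motifs searched, which the Negr1 promoter held as well. Neither E-box occurred in the entries shown. The genes run toward each other, so that these promoters lie far apart. CpG pairs numbered 8 for Opcml and 2 and 14 for the Ntm entries, against a median of 6. Such matches describe the letters only.

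**Figure D4:**
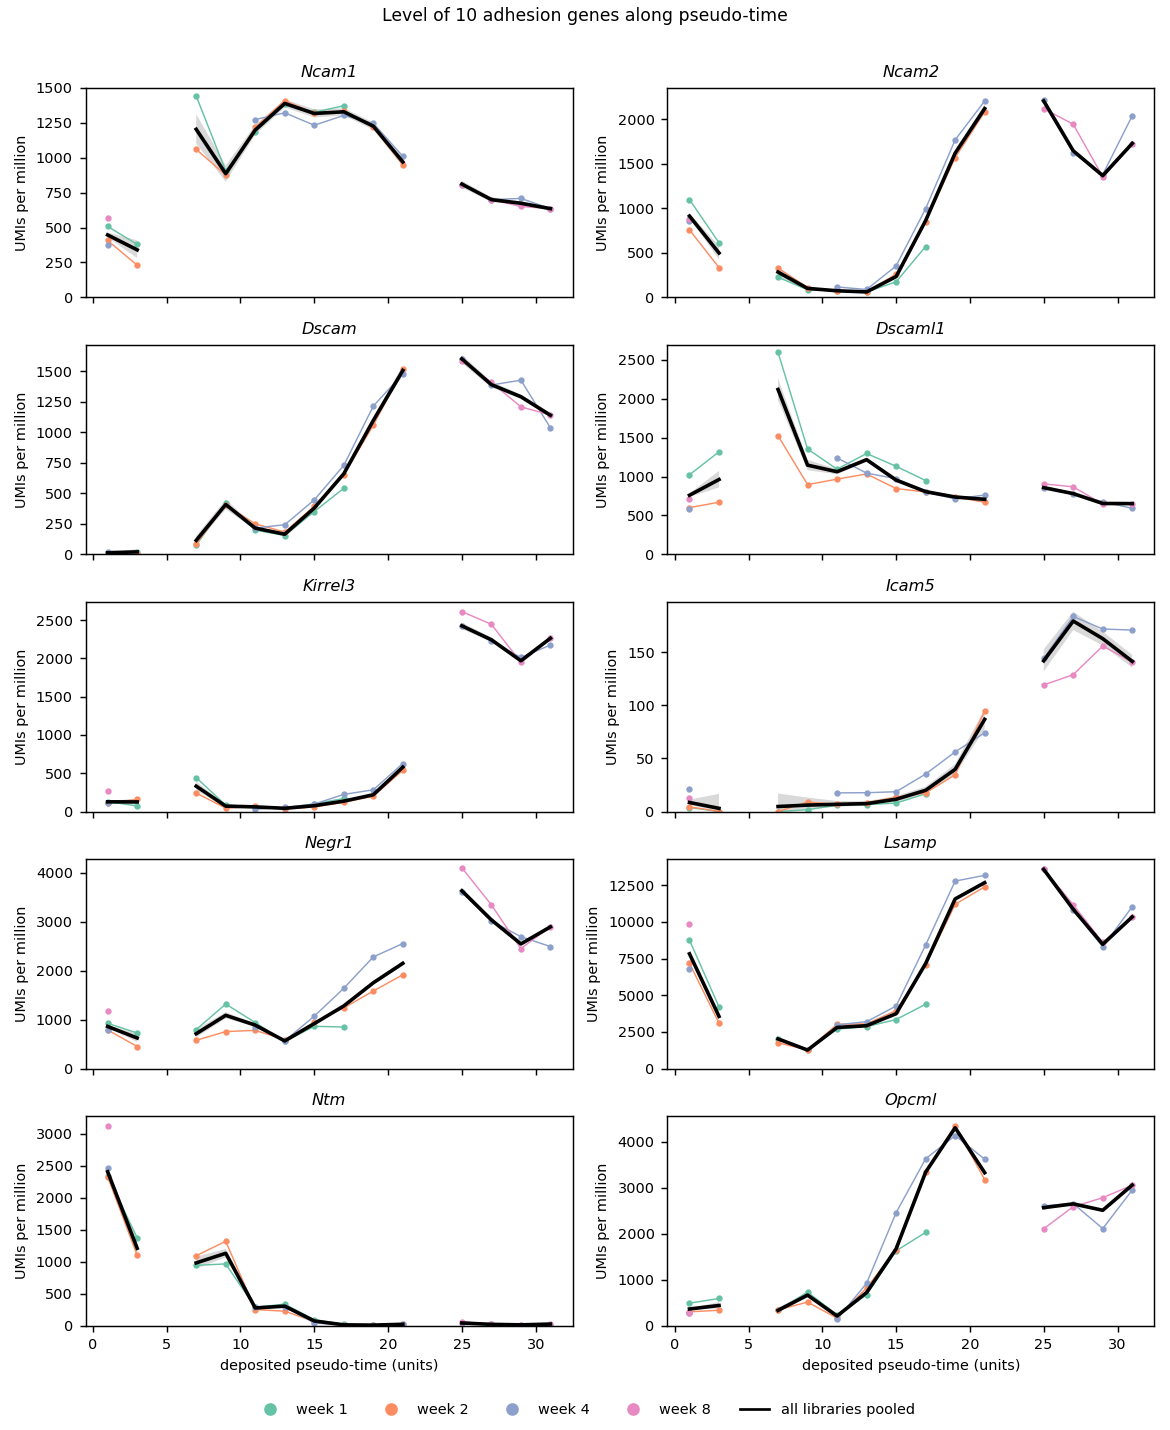
Level of each member in CPM over bins of 2 units of the authors' pseudo-time, for all nuclei (black, with a 95% counting interval in grey) and for each library (coloured), with breaks where a bin holds no nuclei or, for a library, fewer than 20. Ntm is highest in the first bin (2406 CPM), Dscaml1 between 6 and 8 units (2116 CPM), Ncam1 between 12 and 14 (1389 CPM), Opcml between 18 and 20 (4310 CPM) and Ncam2, Dscam, Kirrel3, Negr1 and Lsamp between 24 and 26 units.

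Pseudo-time gives the course without the cluster borders, as a description over 13635 nuclei. No nucleus had a value between 4 and 6 or between 22 and 24 units. Ntm peaked between 0 and 2 units, Dscaml1 between 6 and 8, Ncam1 between 12 and 14 (the median NB1 nucleus lay at 13.03) and Opcml between 18 and 20 (the median GCimm2 nucleus at 19.9). The median NPC nucleus lay at 8.07, beyond the Dscaml1 peak, in a bin where Dscaml1 was at 1146 CPM. The bin of that peak held nuclei of other clusters as well, since it had 141 Kirrel3 UMIs, against 56 in all of NPC. Ncam2 (2206 CPM), Dscam (1601 CPM), Kirrel3 (2427 CPM), Negr1 (3629 CPM) and Lsamp (13576 CPM) all peaked between 24 and 26 units, and Icam5 between 26 and 28 (179 CPM). By cluster, Ncam2 and Lsamp were higher in GCimm2 (2039 and 12705 CPM) than in GCyoung. The low points differed as well. Ncam2 (61.1 CPM), Kirrel3 (41.9 CPM) and Negr1 (564 CPM) were lowest between 12 and 14 units, the bin in which Ncam1 peaked, while Lsamp was lowest between 8 and 10 units (1261 CPM), Opcml between 10 and 12 (210 CPM) and Ntm between 18 and 20 (8.32 CPM), the bin in which Opcml peaked. The median GCmat1 nucleus lay at 30.0 units, beyond all of these peaks.

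Between the mature clusters only Ntm passed the test in the main fit. The number of members that passed was 3 under RLE factors, 4 without the filter and 0 in male or female nuclei alone. The shares of all genes called under these settings are not given here, so these counts describe the members only. GCmat2, with 209 nuclei in w4 and w8, held Ntm at 6.63 CPM in w4 (3 UMIs) and 4.51 CPM in w8 (5 UMIs), against 76.8, 10.8 and 28.3 CPM in the GCmat1 of w1, w4 and w8. The ratio of GCmat2 over GCmat1 was 0.61 in w4, with a counting interval of 0.12 to 1.93, and 0.16 in w8 (0.052 to 0.37). The fitted fall passed (log2 fold change -2.28 ± 0.60, adjusted p = 0.00795) but not without w8 (-1.33), after thinning to 2000 UMIs a nucleus, in male or female nuclei alone or by the mean log2 per nucleus. Of the 769 Ntm UMIs of GCmat1, 276 came from the 220 nuclei without a pseudo-time value, which held Ntm at 113 CPM, against 18.4 CPM in the other 3136. That made 0 members higher and 1 lower, against 3.01% and 4.28% of all genes. None of the other members passed the test in the main fit. In the w4 and w8 libraries of GCmat2, Ncam2 was at 2595 and 3061 CPM (log2 0.78 ± 0.26, adjusted p = 0.0588) and Kirrel3 at 3444 and 3515 CPM (0.68 ± 0.25, adjusted p = 0.0918). Lsamp was at 15486 and 14466 CPM (0.69 ± 0.30, adjusted p = 0.192) and Negr1 at 3267 and 3553 CPM (0.28 ± 0.24, adjusted p = 0.644). These levels lay above all GCmat1 libraries. How many of all genes lay so was not counted, so this is not read as a trait of the members. Opcml at 1556 and 1464 CPM lay below all GCmat1 libraries (-0.71 ± 0.32, adjusted p = 0.213). Before adjustment 5 members had a p below 0.05, namely Ntm, Ncam2, Kirrel3, Lsamp and Opcml. Nuclei of GCmat1 with strong ventral signal were left out of the pseudo-time, but the number stated for them is another, so the nuclei without a value cannot be taken to be that set. Among the nuclei without a value, only the w8 nuclei gave a sum, so there is no spread among libraries for them and their values are given as a description. Ntm was at 112 CPM in them and at 19.5 CPM in the w8 nuclei with pseudo-time. Opcml was at 1417 CPM over all nuclei without pseudo-time and at 2830 CPM with it. Negr1 (4253 against 2725 CPM), Kirrel3 (2837 against 2129 CPM) and Lsamp (12113 against 9480 CPM) were higher without it.

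In glia the same genes were combined in other ways, with Dscam and Opcml high in OPC, Kirrel3 in oligodendrocytes and Lsamp and Ntm in astrocytes. From RGL to OPC, 7 members rose and 0 fell, against 14.5% and 15.2% of all genes, and the median log2 fold change was 1.18 over the members and -0.14 over all genes. Dscam was at 5115, 3858, 3463 and 4567 CPM in the OPC of w1, w2, w4 and w8, far above the 6.37 to 25.0 CPM of RGL (log2 fold change 8.34 ± 0.26, adjusted p = 9.45e-33). Opcml was at 6327, 5668, 5397 and 5497 CPM (4.22 ± 0.27, adjusted p = 8.66e-20), the highest of any cluster, as for Dscam. Kirrel3, Ncam2, Ncam1, Lsamp and Dscaml1 rose by between 1.03 and 1.92 on the log2 scale. Against GCmat1, OPC held Dscam, Dscaml1, Ntm and Opcml higher and Kirrel3, Icam5 and Negr1 lower (4 and 3, against 15.7% and 19.1% of all genes). The call of Dscaml1 was lost without w1 (0.53) and that of Opcml without w4 (0.76). Icam5 had 3 UMIs in OPC, a level 33.5-fold below GCmat1 (counting interval 11.5 to 163-fold).

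From OPC to oligodendrocytes, Kirrel3 rose and Ncam2, Dscam, Negr1, Lsamp, Ntm and Opcml fell (1 higher and 6 lower, against 6.7% and 13.2% of all genes). Kirrel3 was at 537, 394, 614 and 434 CPM in OPC and at 2063, 2892 and 3999 CPM in the oligodendrocytes of w2, w4 and w8 (log2 fold change 2.33, adjusted p = 5.62e-12), next to 2188 CPM in GCmat1. Lsamp went from 15058 CPM in OPC to 450, 473 and 404 CPM in oligodendrocytes (-5.36, adjusted p = 1.89e-19), the lowest of all 13 clusters. Dscam went to 113, 158 and 105 CPM (-5.41, adjusted p = 8.87e-21). Ntm had 2 UMIs in 45 oligodendrocytes against 2790 CPM in OPC, a 306-fold lower level (counting interval 84.7 to 2532-fold). Ncam1 and Dscaml1 did not pass, at 1302 and 1175 CPM in oligodendrocytes. The oligodendrocytes were the smallest cluster, and each of their sums held fewer than 20 nuclei.

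Astrocytes and RGL, which share many genes, were set apart by 6 members. From astrocytes to RGL, Dscaml1 and Opcml were higher and Ncam1, Kirrel3, Lsamp and Ntm lower (2 higher and 4 lower, against 4.77% and 4.82% of all genes). Dscaml1 was at 30.6, 26.7 and 0 CPM in the astrocytes of w1, w2 and w4, and at 597 CPM or more in every RGL library (log2 fold change 5.14 ± 0.43, adjusted p = 8.26e-14). Kirrel3 was at 2038, 1183 and 1409 CPM in astrocytes, against 106 to 268 CPM in RGL (-3.55 ± 0.24, adjusted p = 7.02e-17). Opcml was at 7.66, 8.90 and 86.7 CPM in astrocytes and at least 268 CPM in RGL (3.50 ± 0.55, adjusted p = 3.62e-06), so that the w4 astrocytes stood apart and the library ratios ran from 3.16 to 63.9. Lsamp at 24110, 18516 and 17405 CPM and Ntm at 6458, 5872 and 6470 CPM were higher in astrocytes than in any other cluster, and RGL was lower by 1.39 ± 0.26 (adjusted p = 5.87e-05) and 1.42 ± 0.22 (adjusted p = 1.3e-06) on the log2 scale. The median over the members was -0.17 and that over all genes 0.27, and under RLE scaling or DESeq2 the all-gene median was 0.07 and 0.00.

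Against mature granule cells, astrocytes held Lsamp and Ntm higher and Ncam2, Dscam, Dscaml1, Icam5, Negr1 and Opcml lower (2 and 6, against 15.9% and 19.4% of all genes). The difference of Lsamp was small (log2 fold change 0.90, adjusted p = 0.00652) and did not pass without w1 (0.51) or w4 (0.91). Dscam had 1 UMI in 67 astrocytes, a level 405-fold below GCmat1 with a counting interval of 72.8 to 16010-fold. Icam5 had 2 UMIs there, 25.0-fold below (6.91 to 206-fold). Kirrel3 did not differ past the threshold (-0.56, adjusted p = 0.0553). In Cluster 11, Dscam and Kirrel3 had 0 UMIs in 60 nuclei, which allows up to 9.48 CPM, and the other 8 members were between 3.16 and 875 CPM.

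The make-up of the IgLON group, in shares of its UMIs that were compared between clusters only, differed accordingly. Lsamp ran from 35.4% in NPC to 74.8% in GCmat2. Ntm made up 21.009% of the IgLON UMIs in RGL, 26.1% in NPC, 22.5% in astrocytes and 11.3% in OPC, but 0.17% in GCmat1 and 0.74% in oligodendrocytes. Opcml made up 3.27% in RGL, 28.0% in GCimm1, 17.7% in GCmat1 and 23.1% in OPC, but 0.11% in astrocytes. Negr1 ranged from 4.12% in astrocytes to 32.2% in oligodendrocytes.

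CPM does not set levels between genes, since UMIs were counted over introns as well as exons and these genes differ greatly in span. Values per kb of span are given as a description only. The libraries were of 3′ ends, and whether UMIs grow with span was not tested. Icam5 spans 6.964 kb of chromosome 9, and Lsamp 2197 kb of chromosome 16. Per kb of gene span, Icam5 was at 21.4 CPM in GCmat1 and Lsamp at 4.41 CPM, so that the member with the lowest CPM in those nuclei apart from Ntm had the highest value per kb. This order depends on the division by span and does not rank the genes by abundance. On GRCm38, Icam5 is at chr9:21032073-21039036 on the plus strand, Ncam1 at chr9:49502136-49798925 on the minus strand and Dscam at chr16:96590840-97170752 on the minus strand. Kirrel3 is at chr9:34485894-35036716, Opcml at chr9:27790775-28925410 and Lsamp at chr16:39984361-42181679, all on the plus strand, and Ntm at chr9:28994750-29963141 on the minus strand. Of the 10 genes, 6 are on chromosome 9 and 3 on chromosome 16. No member overlaps another protein-coding gene. Noncoding features overlap most of them on the same strand, 8 in the case of Negr1 and 5 for Lsamp, so the counts of those stretches are uncertain.

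Other adhesion genes with immunoglobulin domains changed in both directions. Of 45 on a list, 38 were tested, and from NB1 to GCmat1 13 rose and 17 fell (20.2% and 19.9% of all genes), with a median log2 fold change of -0.55. Among those that rose, Lrfn5, a synaptic adhesion molecule, went from 32.3 to 2134 CPM (6.001, adjusted p = 1.54e-22) and Lingo2 from 139 to 5322 CPM (5.02, adjusted p = 9.35e-22). Kirrel2, a relative of Kirrel3, had 0 UMIs in NB1 and 1.20 CPM in GCmat1, at least 4.36-fold higher against the floor of 3 counts. Among those that fell, Igsf21 went from 32.2 to 0.41 CPM (adjusted p = 2.07e-11) and Nectin2 from 15.6 to 0.24 CPM (adjusted p = 1.38e-06), and Bcam had 1 UMI left in GCmat1, 137-fold below NB1 (23.4 to 5499-fold). Iglon5, the IgLON gene outside the members, was at 32.9 and 16.2 CPM and did not pass (-0.27, adjusted p = 0.499). The same list had 18 genes higher and 5 lower from RGL to OPC (14.5% and 15.2% of all genes), and 6 higher and 12 lower from OPC to oligodendrocytes (6.7% and 13.2%), next to 7 and 0, and 1 and 6, of the members.

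Of 17 genes on a list of NCAM polysialylation and partner genes, 16 were tested. The partners, among them Ezr, Msn, Rdx, Cask, Pak1 and Magi1 to Magi3, are not all known to bind NCAM. From NPC to NB1, 11 of the list rose and 4 fell (14.7% and 14.6% of all genes). From NB1 to GCmat1, 4 rose and 7 fell (20.2% and 19.9%). The falls included St8sia2, Ezr (ezrin, a linker to actin, from 48.3 to 0.55 CPM, log2 fold change -5.21, adjusted p = 5.15e-15) and Gap43, a growth cone protein (from 46.2 to 1.44 CPM, -4.04, adjusted p = 7.04e-12). The rises were Gfra1, a receptor for GDNF that can pair with NCAM, from 50.7 to 95.4 CPM (1.06, adjusted p = 0.0002), and the spectrins Sptan1 (243 to 259 CPM, 0.78, adjusted p = 0.000507) and Sptbn1 (374 to 428 CPM, 0.66, adjusted p = 0.00428) among others. The CPM of the spectrins differed little between the clusters, so their calls depend on the difference between fitted values and CPM ratios described above.

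**Figure D5:**
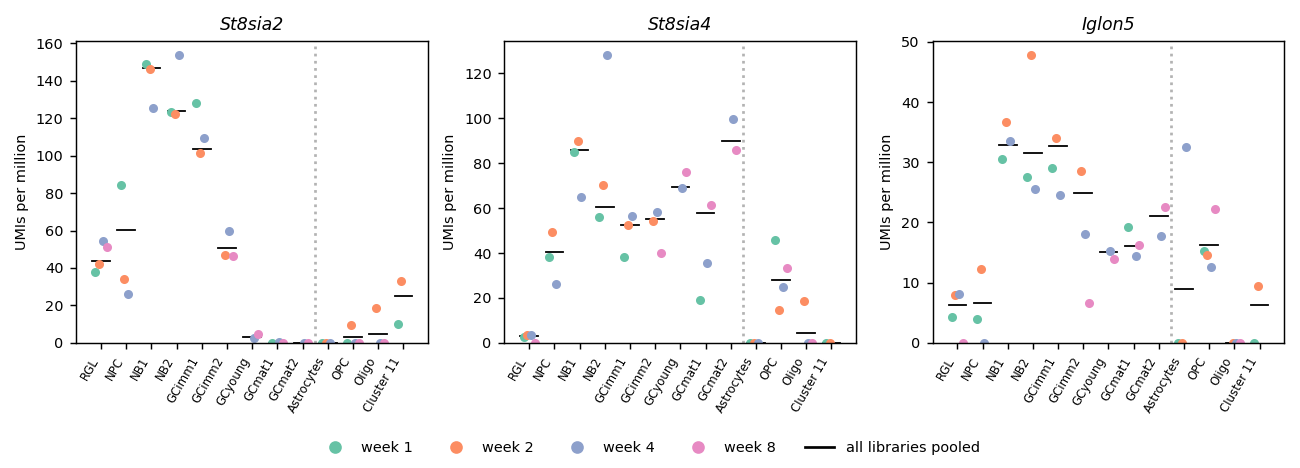
Levels of St8sia2, St8sia4 and Iglon5 in CPM (linear axes) in every cluster, with 1 point per library of at least 10 nuclei, coloured by week, and a line at the level of the pooled nuclei. St8sia2 drops from 147 CPM in NB1 to 2.89 CPM in GCyoung, while St8sia4 is at 86.1 CPM in NB1 and 57.9 CPM in GCmat1.

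The gene whose log2 CPM ran most like that of each member, over the 29 sums of trajectory clusters and astrocytes, is given as a description, since these sums share libraries and cluster structure. It was Zswim6 for Ncam1 (Pearson r = 0.93), Cdh11 for Ncam2 (0.95), Ptprn2 for Dscam (0.97), Fbxl2 for Dscaml1 (0.96) and Mdga2 for Kirrel3 (0.95). It was Doc2b for Icam5 (0.97), Il1rap for Negr1 (0.94), Nrcam for Lsamp (0.94), Daam2 for Ntm (0.96) and Lppr1 for Opcml (0.94). Among these matches, Cdh11, Mdga2 and Nrcam are adhesion or synaptic organiser genes themselves. The share of such genes among the 13513 genes of that fit was not counted, so no shared programme is read from the matches.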

How the data were processed

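Nuclear RNA of sorted nuclei was sequenced in 4 libraries (10x Genomics). The authors counted UMIs with STARsolo 2.7.4a on mm10 over exons and introns, and the deposited count files hold whole UMI counts for 45706 features, with no normalization. A second deposited table holds log2 expression of 13353 genes, which the authors made from counts over size factors. Only its nuclei, clusters and slingshot pseudo-time were used here, after the authors' removal of doublets and of 1 group of w4 nuclei.

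UMIs were summed per library and cluster (at least 10 nuclei) and tested with edgeR 4.0.16 in R 4.3.3 (filterByExpr, TMM, glmQLFit, glmQLFTest, cluster and library as terms). The fit of trajectory and astrocytes held 29 sums and 13513 genes, that of all clusters 38 sums and 11548 genes, and that with GCmat1 divided by pseudo-time 30 sums and 15251 genes. The standard error is the log2 fold change over the square root of F. A p-value measures the spread between sums of 1 pool a week, not between animals. Levels and shares have exact 95% Poisson and Clopper-Pearson intervals, which cover counting error only, and the floor of a count of 0 is 3 counts. In simulated data, 138 of 200 changed genes were recovered from NB1 to GCmat1 with 28 false calls, and 39 with 3 from OPC to oligodendrocytes.

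The members and lists were chosen with earlier results of these data known. Named are the members, the gene most like each by Pearson correlation over the 29 sums, the 3 largest increases and decreases of each list from NB1 to GCmat1, St8sia2, St8sia4 and Iglon5. Alternatives were DESeq2 1.42.0, RLE factors, no library term, no filter, a minimum of 5 or 20 nuclei, a fold change of 2 or no minimum, thinning to 2000 UMIs (141 nuclei were shallower), male or female nuclei alone, mean log2 of depth-scaled counts per nucleus and each library left out. Python 3.11.15 with pandas 2.3.3 and scipy 1.17.1 was used. The driver of the Cre allele is not reported here.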

Additional observations from a re-analysis of the deposited data

Results flagged for a closer look

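The ratio of Opcml in GCmat1 over GCyoung lay on opposite sides of 1 in the libraries that held both clusters. It was 1.14 in w8 and 0.756 in w4, and the counting interval of each left out 1. The difference between the libraries was not tested, since each week is 1 pool. The fitted change of Opcml over both did not pass the test, as given above.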

How the results depend on the processing

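Each library is 1 pool, the spread between animals is not known, and no comparison has more than 4 libraries with both clusters. Both clusters had a sum in w2 and w4 alone from GCimm1 to GCimm2, in w4 and w8 alone from GCimm2 to GCyoung, GCyoung to GCmat1 and GCmat1 to GCmat2, and in w1 and w4 alone from NB1 and from astrocytes to GCmat1. Of 72 member results past the thresholds, 50 stayed past them under every alternative that gave a value. The 72 include Ntm in the GCmat1 nuclei without pseudo-time, a lone sum on which no call rests, and the 50 do not. None of the 1137 alternative values was past the thresholds in the opposite direction, 76 lost the call, and of the 78 results not past the thresholds some passed, in 62 values. Levels stayed within their tolerance in 422 of 450 values, and 18 of the rest were under thinning.

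From NB1 to NB2, 1 member had changed. The count was 0 at a fold change of 2, in male nuclei and in female nuclei, 2 without the filter, with a minimum of 20 nuclei and after thinning, and between 0 and 1 with each library left out. From NB1 to GCimm1 the 8 members became between 5 and 8, and from GCimm1 to GCimm2 the 6 became between 3 and 6, with each library left out, lowest without w2 in both. From GCimm2 to GCyoung, DESeq2 called 1 in place of 3. From GCmat1 to GCmat2 the 1 member became 3 under RLE factors and by mean log2, 4 without the filter, 2 with a minimum of 5 or 20 nuclei or after thinning, 0 in male or female nuclei, and between 0 and 3 with each library left out. For GCmat1 with and without pseudo-time no count of calls is given, since the nuclei without it gave 1 sum. All of these counts stand without the share of all genes called under the same setting, so they are not read as particular to the members. The cause of the differences between settings was not tested. Oligodendrocytes could not be compared in female nuclei or with a minimum of 20 nuclei, nor the nuclei without pseudo-time without w8. Clusters of the same library were compared with library as a term, and leaving that term out lost 1 call. Between weeks no paired analysis was possible because each week is 1 library.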
